A study of Arabidopsis thaliana with 2 samples.

Results

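The sites described here are the places where LEAFY (LFY) bound Arabidopsis thaliana genomic DNA in vitro far from any protein-coding gene. A binding site was called distal when the midpoint of its listed interval lay in no protein-coding gene and more than 3 kb from the start and end of every such gene. Of 22514 sites on genomic DNA extracted from plants, 1015 (4.51%, exact Clopper-Pearson 95% interval 4.24 to 4.79%) met this rule. The others comprised 4370 sites within 3 kb of a gene (19.4%) and 17129 sites inside one (76.1%). The rule uses only positions and the gene annotation, and not the list of sites on amplified DNA. Distance from genes, position along the chromosome and overlap with pseudogenes, compared below, depend in part on the same annotation.

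LFY is a plant-specific transcription factor that turns on floral identity genes and gives young primordia a flower fate. In Arabidopsis, the sequence farthest from genes lies mainly around the centromeres, is rich in transposable elements and their decayed copies, and carries dense cytosine methylation in the CG, CHG and CHH contexts. Binding in vitro is measured on naked DNA, so nucleosomes and heterochromatin proteins are absent, whereas cytosine methylation stays on DNA taken from plants and is lost when the DNA is copied by PCR.

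The study assayed 5xMyc-tagged LFY, made by in vitro transcription and translation, by DNA affinity purification sequencing, in which bound genomic fragments are recovered, sequenced and listed as peaks. The group called DAP used sheared genomic DNA from 2-week-old seedlings of the 35S::LFY line CA26 #15, in which the constitutive 35S promoter drives LFY. The group called ampDAP used PCR-amplified genomic DNA from seedlings of the same age, whose label names no line or transgene, and both were grown in long days on Murashige and Skoog medium of strength 0.5. There was 1 library of each, with 22514 DAP and 4882 ampDAP sites, all 400 bp wide and without a height or score. The kind of DNA and the plant source therefore cannot be told apart, and the sequencing depth behind each list is unknown. No test between the 2 libraries is possible. Intervals given with shares, differences and densities cover counting error only and treat sites as independent, and chromosomes of 1 library are not replicates.

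Distal sequence was poor in LFY sites for its length. It made up 17.1 Mb, or 14.3% of the 119 Mb of the 5 chromosomes, but held 4.51% of the DAP sites. Length, here and in all densities below, was counted by coordinate and includes unassembled or unmappable bases. The density was 59.4 DAP sites per Mb (exact Poisson 95% interval 55.8 to 63.2), against 116 per Mb within 3 kb of genes and 266 per Mb inside genes. The shortfall was smaller on amplified DNA. Distal sequence held 387 of the 4882 ampDAP sites (7.93%, interval 7.18 to 8.72%), or 22.7 per Mb, against 44.0 per Mb in the rest of the genome. There were 0.381 ampDAP sites for each DAP site in distal sequence and 0.209 elsewhere.

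Distal density fell steadily with distance from genes. DAP sites occurred at 92.0 per Mb at 3 to 5 kb from the nearest gene (385 sites), 65.4 per Mb at 5 to 10 kb (274 sites), 53.3 per Mb at 10 to 20 kb (182 sites) and 32.9 per Mb beyond 20 kb (174 sites). The intervals of neighbouring classes overlapped only between 5 to 10 kb and 10 to 20 kb. For ampDAP sites the fall was smaller, from 32.7 per Mb at 3 to 5 kb to 13.8 per Mb beyond 20 kb. The median distal DAP site lay 6331 bp from a gene, with quartiles of 4064 and 14490 bp, and the farthest lay 178165 bp away.

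**Figure D1:**
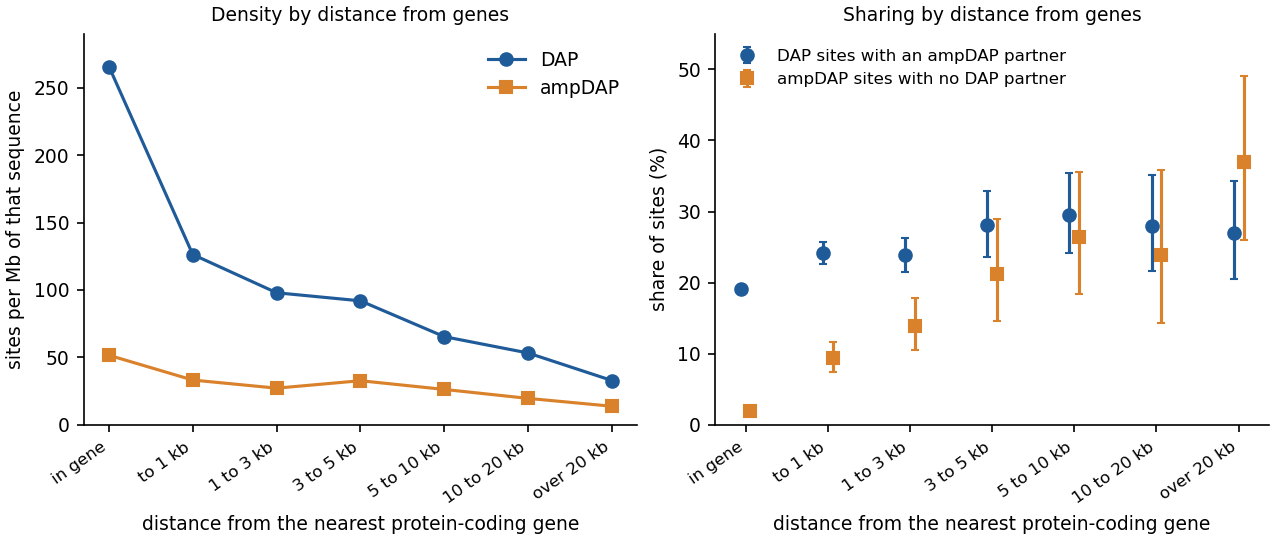
LFY sites by distance from the nearest protein-coding gene. The left panel shows sites per Mb of sequence at that distance for DAP and ampDAP; the right panel shows the share of DAP sites with an ampDAP partner and the share of ampDAP sites with no DAP partner (%), with exact 95% binomial intervals as bars. The DAP density drops from 266 per Mb in genes to 32.9 per Mb beyond 20 kb, while the share of ampDAP sites with no DAP partner rises from 1.92% to 37.0%.

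The distal sites lay mostly in the middle of the chromosomes, where most of the distal sequence is. The centre of the longest gap between neighbouring protein-coding genes served as the reference point on each chromosome, and these gaps were between 135 and 491 kb long. The median distance of the 1015 sites from that centre was 1.57 Mb (95% interval 1.47 to 1.65 Mb), with quartiles of 0.911 and 2.56 Mb, whereas the median of the other DAP sites was 8.08 Mb. The rule and the reference point both rest on distance from protein-coding genes, so the contrast with the other DAP sites is partly set by the rule. Distal sequence itself lay closer still, with a median of 1.16 Mb, so the sites were not gathered beyond the sequence that meets the rule. Distal ampDAP sites had a median of 1.46 Mb.

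Within distal sequence, DAP sites thinned towards the centre of the gap. The density was 94.99 per Mb more than 5 Mb away (134 sites), 86.1 per Mb at 2.5 to 5 Mb (129 sites), 68.9 per Mb at 1 to 2.5 Mb (469 sites) and 38.4 per Mb within 1 Mb (283 sites). How much of each bin is unassembled or unmappable was not measured. In the innermost bin distal sequence was the rule and not the exception, making up 73.7% of the sequence there and 1.96% beyond 5 Mb. The ampDAP density was 27.7, 26.0, 27.0 and 17.0 per Mb in the same order, so a lower density was seen only within 1 Mb, where the interval of 14.1 to 20.2 per Mb lay below the 23.3 to 31.2 per Mb at 1 to 2.5 Mb. The ratio of ampDAP to DAP sites among distal sites accordingly went from 0.291 beyond 5 Mb to 0.442 within 1 Mb.

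On all 5 chromosomes most distal sites lay within 2.5 Mb of the centre, and chromosome 1 had the fewest and most scattered distal sites. Chromosome 1 held 155 distal DAP sites at 44.0 per Mb (37.3 to 51.5), chromosome 2 held 208 at 63.9 per Mb, chromosome 3 held 242 at 64.9 per Mb, chromosome 4 held 174 at 57.4 per Mb and chromosome 5 held 236 at 66.5 per Mb. The density of the other DAP sites varied far less, from 199.7 per Mb on chromosome 2 to 216 per Mb on chromosome 4. Within 2.5 Mb of the centre lay 57.4% of the distal sites of chromosome 1, 72.1% of chromosome 2, 78.9% of chromosome 3, 81.6% of chromosome 4 and 76.3% of chromosome 5. The median distance from the centre was longest on chromosome 1 (1.93 Mb) and shortest on chromosome 4 (1.23 Mb). Distal sites made up 2.66% of the DAP sites of chromosome 1 and between 4.49 and 5.96% of those of the other chromosomes.

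**Figure D2:**
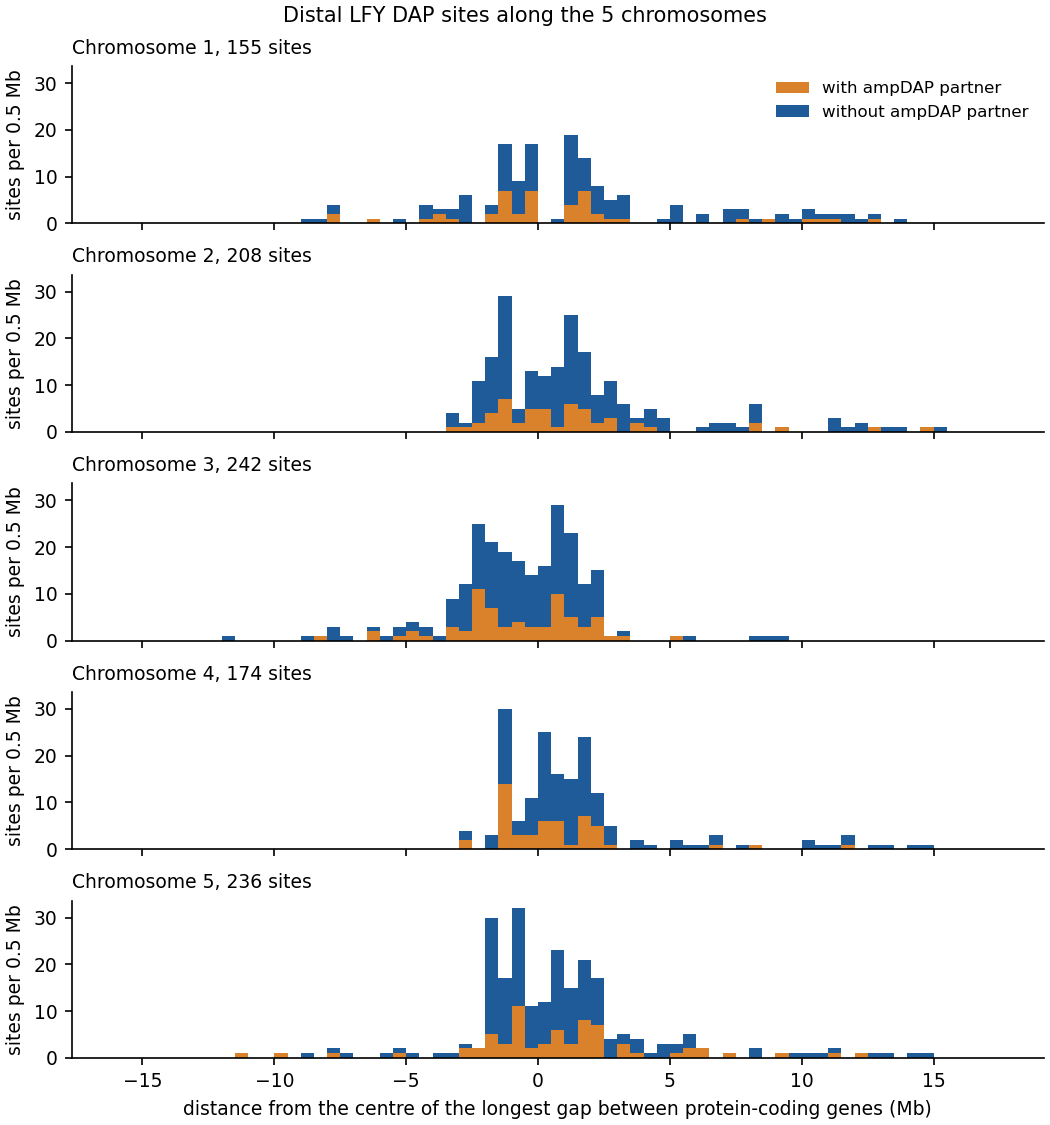
Distal LFY DAP sites along the 5 chromosomes. Each bar is the number of sites per 0.5 Mb, placed by signed distance (Mb) from the centre of the longest gap between protein-coding genes, with the sites that have an ampDAP partner as the lower segment of the bar. Most bars stand within 2.5 Mb of the centre on each chromosome, and the scattered sites on the arms are most frequent on chromosome 1, where 57.4% lie within 2.5 Mb.

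More than 1 in 2 distal sites fell in an annotated pseudogene. The RefSeq gene table has no separate class for transposable element genes and lists them with the pseudogenes, so both are counted together. The midpoints of 540 distal DAP sites (53.2%, interval 50.1 to 56.3%) lay in such a gene, of which 512 lay in a gene listed as pseudogene and 28 only in a transcribed pseudogene. Pseudogenes covered 43.6% of the distal sequence. A further 22 sites lay only in a noncoding RNA gene, and 453 (44.6%) lay in no annotated gene. Of the sites within 3 kb of a protein-coding gene, 9.13% lay in a pseudogene, against 7.70% of that sequence.

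The excess in pseudogenes was seen on plant DNA and not resolved on amplified DNA. Distal DAP sites occurred at 72.5 per Mb in pseudogenes (66.5 to 78.8) and 49.3 per Mb outside them (45.0 to 53.9), a ratio of 1.47 (1.30 to 1.66). Distal ampDAP sites occurred at 23.5 per Mb in pseudogenes (20.1 to 27.2) and 22.0 per Mb outside (19.1 to 25.2), and these intervals overlap. Whether the contrast differed between the kinds of DNA was not tested. The DAP density was higher in pseudogenes on all 5 chromosomes. The gap was smallest on chromosome 2, at 70.3 against 58.2 per Mb, and largest on chromosome 5, at 87.8 against 49.5 per Mb, and the intervals overlapped on chromosomes 1, 2 and 4. By position, the densities in and outside pseudogenes were 55.9 and 24.2 per Mb within 1 Mb of the centre, 80.1 and 58.6 per Mb at 1 to 2.5 Mb, and 116 and 66.8 per Mb at 2.5 to 5 Mb, with no overlap of the intervals in these 3 bins. The excess was not seen beyond 5 Mb, where the density was 87.3 per Mb in pseudogenes and 97.1 per Mb outside, with overlapping intervals.

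**Figure D3:**
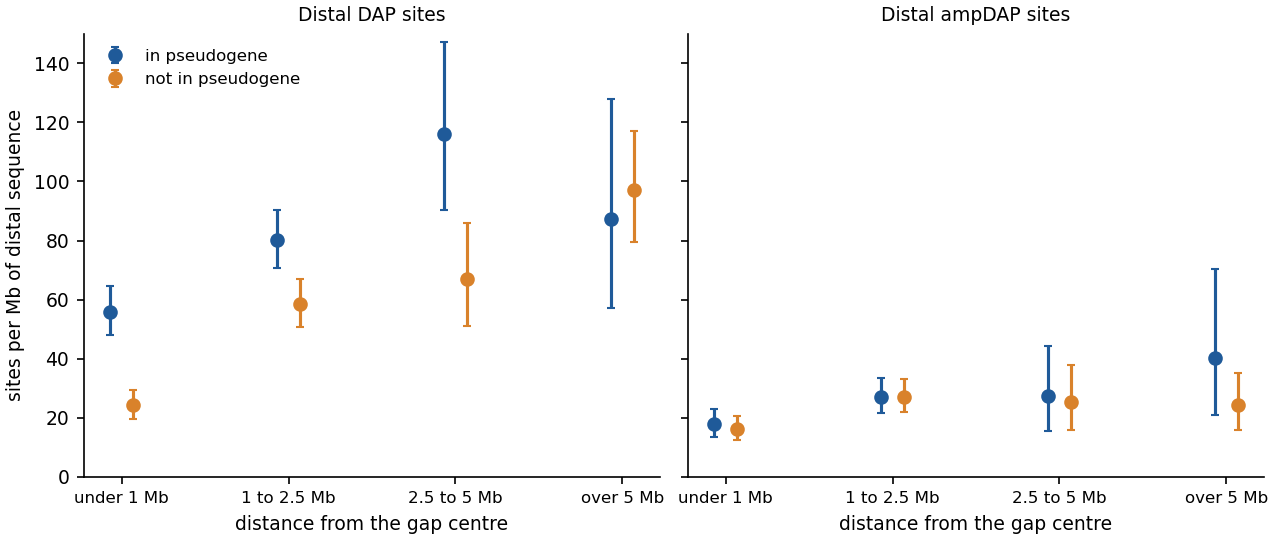
Density of distal LFY sites in and out of annotated pseudogenes, by distance from the gap centre. Points are sites per Mb of distal sequence of that kind, bars are exact Poisson 95% intervals, and both panels share 1 axis. DAP sites are denser in pseudogenes in the 3 bins within 5 Mb (55.9 against 24.2 per Mb in the innermost), whereas the ampDAP points nearly coincide within 5 Mb.

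Few pseudogenes carried a site, and longer ones carried one more often. The distal DAP sites in pseudogenes lay in 407 of them, of which 302 held 1 site, 77 held 2, 22 held 3, 5 held 4 and 1 held 7. Among the 3096 pseudogenes whose own midpoint lay in distal sequence, the share with a site was 3.84% up to 1 kb of length, 9.01% at 1 to 2.5 kb, 17.2% at 2.5 to 5 kb and 28.0% over 5 kb. Counted per Mb of pseudogene, the classes differed less, with 61.3, 59.3, 67.3 and 71.7 sites per Mb. Sites showed little preference for a place along the pseudogene: 54.5% (50.2 to 58.7%) of 549 placements lay in the central 50% of the length. For ampDAP sites this share was 50.6% (43.0 to 58.1%).

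The pseudogene with most sites was AT5G32690, a transcribed pseudogene annotated over 58519 bp of chromosome 5, at 0.503 Mb from the gap centre. It held 7 distal DAP sites spread over 48045 bp, of which 1 had an ampDAP partner. The pseudogene AT5G32825, 6731 bp long and within the same stretch, held 4 of these sites. The other pseudogenes with 4 sites were AT4G06644, AT5G28056, AT5G35535 and AT5G35725, between 4803 and 5853 bp long. Of their 4 sites each, AT5G35725 had 2 with an ampDAP partner, AT4G06644 and AT5G28056 had 1, and AT5G35535 had 0. Of all distal sites 28.3% had a partner, and with so few sites in each these pseudogenes cannot be set apart from that share.

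A larger share of the distal DAP sites than of the other DAP sites had a match on amplified DNA. A partner was an ampDAP midpoint within 200 bp of the DAP midpoint. Of the 1015 distal DAP sites, 287 had a partner (28.3%, interval 25.5 to 31.2%), against 20.4% of all 22514 DAP sites. The share was 20.1% among all sites that were not distal, 24.0% within 3 kb of genes and 19.1% inside genes. The distal share was higher than that of the sites that were not distal by 8.21 percentage points (Newcombe 95% interval 5.47 to 11.1), and higher than that of the sites within 3 kb of genes by 4.25 points (1.27 to 7.36). Partners were almost 1 to 1, so these shares are limited by the number of ampDAP sites per DAP site, 0.381 in distal sequence and 0.209 elsewhere. Counted from the ampDAP list, sharing was lower in distal sequence: 73.9% of distal and 95.8% of other ampDAP sites had a DAP partner. The partner share of distal DAP sites was nearly level over distance from genes, at 28.1% at 3 to 5 kb, 29.6% at 5 to 10 kb, 28.0% at 10 to 20 kb and 27.0% beyond 20 kb.

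The direction of the difference between distal and other DAP sites was the same on every chromosome and at every distance from the centre, but not each of these was resolved. The distal share was 29.7% against 20.8% on chromosome 1, 25% against 20.9% on chromosome 2, 28.5% against 19.8% on chromosome 3, 29.3% against 19.3% on chromosome 4 and 29.2% against 19.5% on chromosome 5. The interval of the difference left out 0 on each chromosome except chromosome 2, where it ran from -1.47 to 10.6 points. By distance from the centre, the distal share was 29.0% within 1 Mb, 29.2% at 1 to 2.5 Mb, 25.6% at 2.5 to 5 Mb and 26.1% beyond 5 Mb, and the difference from the other sites was 5.29, 7.11, 4.61 and 6.51 points. Only that at 1 to 2.5 Mb had an interval without 0 (2.53 to 11.9). When the other sites were weighted to the distal sites' distribution over these 4 bins, their share was 22.1% in place of 20.1%. Against the sites within 3 kb of genes, the interval of the difference included 0 in each of the 4 bins, and at 2.5 to 5 Mb the shares were 25.6% and 25.8%.

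**Figure D4:**
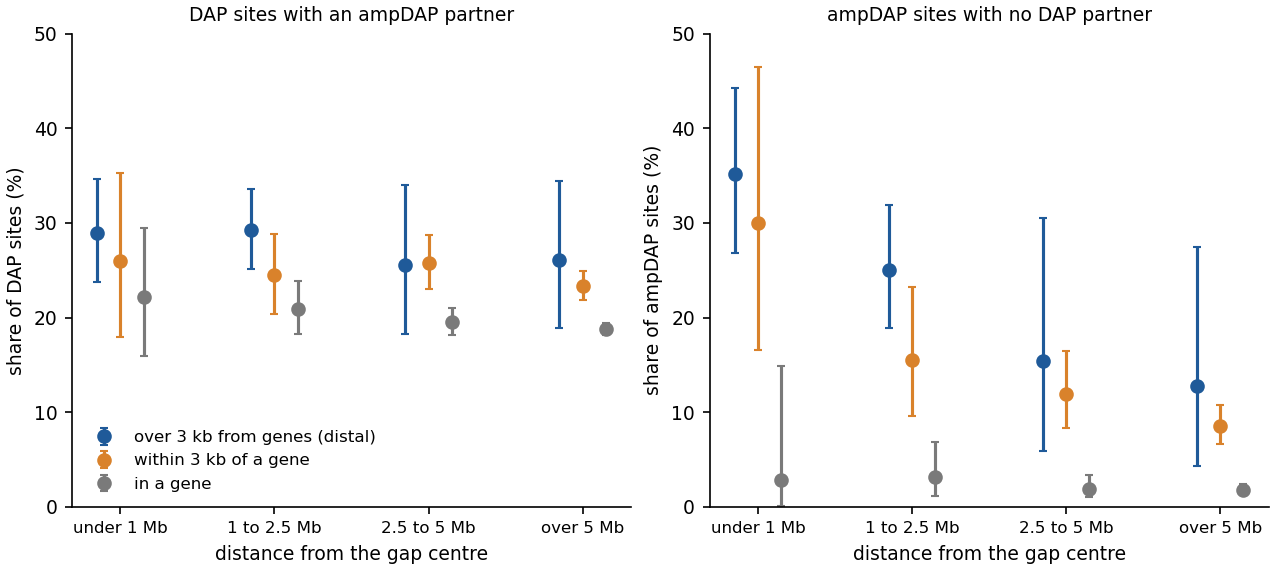
Sharing of LFY sites between plant DNA and amplified DNA, by distance from the gap centre. The left panel shows the share of DAP sites with an ampDAP midpoint within 200 bp and the right panel the share of ampDAP sites with no DAP midpoint within 200 bp (%), for sites over 3 kb from genes, within 3 kb and in genes; bars are exact 95% binomial intervals. In the right panel the distal share climbs from 12.8% beyond 5 Mb to 35.2% within 1 Mb. The share within 3 kb of genes climbs as well, from 8.54% to 30%, while the share in genes stays between 1.82% and 3.19%.

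Partners of distal sites lay close to them. The median offset between the 2 midpoints was 9 bp, with quartiles of 3 and 16.5 bp, against 7 bp (3 and 13 bp) for the other sites. Partners within 10 bp made up 57.1% of the distal pairs and 67.7% of the other pairs, and the farthest distal partner was 175 bp away. The 287 distal sites had 286 different partners, because 1 ampDAP site lay within 200 bp of a pair of DAP sites, and 285 of the partners were distal by the same rule.

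Among distal sites, those outside pseudogenes had a partner more often than those inside. The share was 25.4% (137 of 540) in pseudogenes and 31.6% (150 of 475) outside, a difference of -6.21 points (-11.8 to -0.654). There were 0.324 ampDAP sites per DAP site in pseudogenes and 0.446 outside, and these ratios limit the partner shares here too. Within 1 Mb of the centre the shares were 23.2% and 39.8% (difference -16.6 points, -27.9 to -5.29). The direction held on 4 of the 5 chromosomes and was opposite on chromosome 4 (32.2% against 26.2%). It was also opposite beyond 5 Mb (38.5% of 26 sites against 23.1% of 108), where the interval included 0. The overall interval came to include 0 without chromosome 1 (-11.2 to 0.866 points), without chromosome 3 (-10.6 to 2.08) or without chromosome 5 (-11.7 to 0.910), and with a distance limit of 2 kb (-7.42 to 1.72).

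Outside pseudogenes the partner share was highest close to their ends, but the differences were not resolved. It was 36.9% (28.3 to 46.1%) within 500 bp of a pseudogene, 34.1% at 500 to 2000 bp, 29.5% at 2 to 5 kb and 25.7% (18.7 to 33.8%) beyond 5 kb, and the intervals of all these classes overlap. The number of ampDAP sites per DAP site, which limits this share, was 0.557, 0.526, 0.372 and 0.314 in the same order. Of the 28 sites only in a transcribed pseudogene, 3 had a partner, and of the 22 only in a noncoding RNA gene, 2 had one. The 453 sites in no annotated gene had a share of 32.7%.

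**Figure D5:**
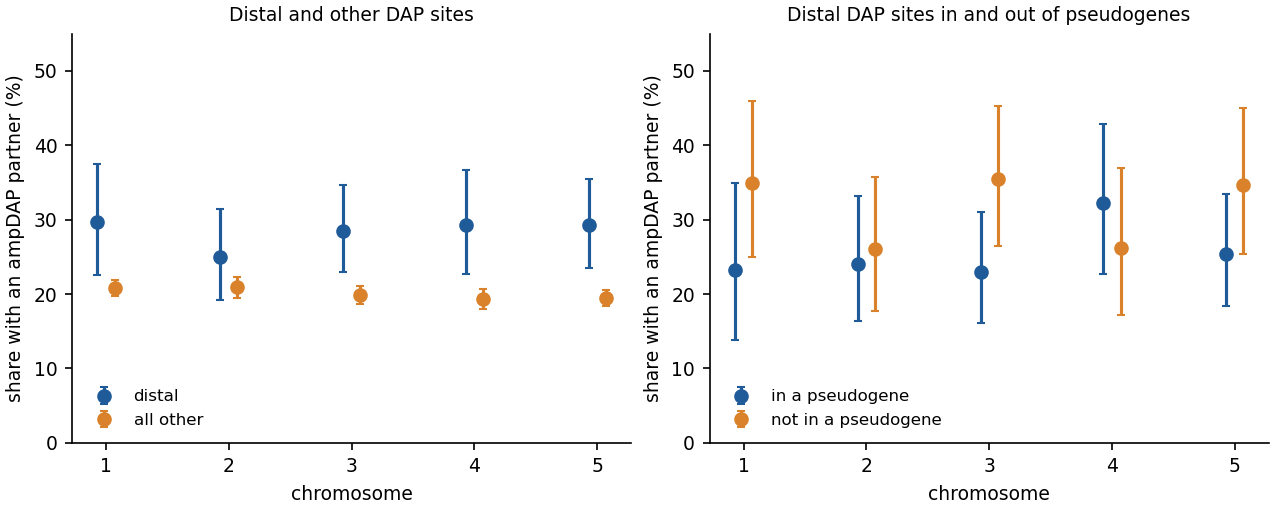
Share of DAP sites with an ampDAP partner (%) on each chromosome, with exact 95% binomial intervals. The left panel sets distal sites against all other DAP sites, and the right panel sets distal sites in a pseudogene against those outside. Distal sites are higher on all 5 chromosomes, least so on chromosome 2 (25% against 20.9%), and sites in pseudogenes are lower on each chromosome except chromosome 4.

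Matched in the opposite direction, sites on amplified DNA lacked a counterpart on plant DNA more often in distal sequence than elsewhere. Of the 387 distal ampDAP sites, 101 had no DAP midpoint within 200 bp (26.1%, interval 21.8 to 30.8%), against 4.23% of the 4495 other ampDAP sites. Among these others the share was 10.8% within 3 kb of genes and 1.92% inside genes. The difference between distal and all other ampDAP sites was 21.9 points (17.7 to 26.5). It lay between 16.2 points on chromosome 5 and 32.5 points on chromosome 4, and its interval left out 0 on all 5 chromosomes and in all 4 distance bins. When the other ampDAP sites were weighted to the distal distribution over the bins, their share was 10.3%.

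Distal ampDAP sites lacked a partner more often towards the centre. The share without a partner was 35.2% within 1 Mb, 25% at 1 to 2.5 Mb, 15.4% at 2.5 to 5 Mb and 12.8% beyond 5 Mb, and 90 of the 101 lay within 2.5 Mb. Distal ampDAP sites as a whole also lay mostly within 2.5 Mb, with 125 of 387 within 1 Mb and 184 at 1 to 2.5 Mb. The rise in the share without a partner was not particular to distal sites. For ampDAP sites within 3 kb of genes the shares were 30% (12 of 40, 16.6 to 46.5%), 15.6%, 11.9% and 8.54% in the same order. These 101 sites made up 34.7% of all 291 unpartnered ampDAP sites, whereas distal sites made up 7.93% of the ampDAP list. Most were far from any DAP site and not narrow misses: their nearest DAP midpoint was a median of 7231 bp away, 18 had one within 1 kb and 61 had none within 5 kb. The share without a partner was 21.7% in pseudogenes and 29.7% outside, and the interval of this difference included 0 (-16.5 to 0.810 points).

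The 10 sites farthest from genes lay on chromosomes 3, 4 and 5, between 0.0290 and 0.504 Mb from the gap centres. The centre is the middle of the longest gap between genes, so closeness to it is partly set by this choice of sites. For a site in that gap, the distance from the centre follows from the distance to the gene. The longest gap on chromosome 2, 135 kb, was too short for any site to lie 71.5 kb from a gene. The farthest was chr3:13842323-13842722 (TAIR10), 178 kb from the nearest protein-coding gene, AT3G33187, and 0.0671 Mb from the gap centre, in no annotated gene. Its nearest ampDAP midpoint was 105 kb away. The next, chr3:13873996-13874395 and chr3:13886564-13886963, lay 146 and 134 kb from that gene, and the second of these fell in the pseudogene AT3G33115. Of the 10 farthest sites, which lay between 71.5 and 178 kb from a gene, 4 lay side by side in AT5G32690 and AT5G32825 on chromosome 5, and 6 lay in a pseudogene. Of the 10, 1 had an ampDAP partner, chr5:12360302-12360701, at an offset of 30 bp. Over all 174 sites beyond 20 kb the partner share was 27.0% (20.6 to 34.2%), close to the 28.3% of all distal sites.

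Partners were found deep in gene-free sequence. The 10 partnered sites farthest from genes lay between 44.5 and 80.0 kb from one, with offsets of 3 to 139 bp, and 6 lay in a pseudogene. The site chr2:3868700-3869099 in the pseudogene AT2G10180 was 0.00201 Mb from the middle of the gap on chromosome 2. That gap was 135 kb long and the site lay 65.6 kb from a gene, so its place near the middle restates that distance. The sites chr1:15534214-15534613 and chr1:15535370-15535769, in no annotated gene and 48.0 and 46.9 kb from AT1G41820, were neighbours that both had a partner, at 26 and 6 bp.

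The 5 ampDAP sites without a DAP partner that were farthest from genes lay 0.156 to 0.595 Mb from the gap centres. Here too, closeness to the centre is partly set by choosing sites for their distance from genes. The site chr3:13947210-13947609 lay 73.3 kb from AT3G33187 and 0.172 Mb from the centre, and its nearest DAP midpoint was 11.5 kb away. For chr5:12012490-12012889, 64.0 kb from AT5G32440, the nearest DAP midpoint was 71.0 kb away. The other 3 were chr4:3463565-3463964, chr4:3812655-3813054 and chr3:13976345-13976744, with the nearest DAP midpoint 8.94, 0.675 and 3.08 kb away. None of these 5 lay in an annotated gene.

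Distal sites often came in small groups. The median distance from a distal DAP site to the next was 20460 bp, with quartiles of 2725 and 71420 bp. With gaps of under 5 kb joined, the 1015 sites formed 682 groups, of which 457 were single sites and 74 held 3 or more. The 225 groups of at least 2 sites held 558 sites (54.98%). Larger groups were more often in pseudogenes, at 43.1% of single sites, 57.9% of sites in pairs and 65.6% of sites in groups of 3 or more. The partner share did not follow, at 27.1%, 29.8% and 28.5%.

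The largest group lay on chromosome 5 and was mostly outside pseudogenes. It spanned chr5:11308703-11317377, 8675 bp long and 0.543 Mb from the centre, and its 9 sites lay between 22.3 and 30.6 kb from protein-coding genes. Of these sites, 5 had an ampDAP partner, the group held 4 ampDAP sites, and 1 site lay in the pseudogene AT5G29890. The next, at chr4:3787912-3798928, was of the opposite kind: all 6 sites lay in the pseudogenes AT4G06640, AT4G06642 and AT4G06644, and 1 had a partner. A pair of groups followed with 5 sites each. That at chr2:2607858-2618526 had no partner among its sites, and that at chr3:14502935-14512589 had 2.

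Neighbouring distal sites that lay 400 bp to 5 kb apart had a partner together in 25 of 294 pairs (8.503%, 5.58 to 12.3%), against 527 of 12947 pairs (4.07%) of other sites. With 28.3% of distal sites and 20.1% of other sites partnered, both shares follow the order of the single sites.

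Few distal sites lay only in noncoding RNA genes, but these genes covered little of the distal sequence. They made up 1.20% of it and held 2.17% of the distal DAP sites, or 107 per Mb (67.2 to 162). In no annotated gene the density was 48.0 per Mb (43.7 to 52.7), and in genes listed as pseudogene 71.7 per Mb (65.6 to 78.2). The 2 of 22 with a partner amount to 9.09% (1.12 to 29.2%), an interval that includes the 28.3% of all distal sites. The 10 of these 22 that were farthest from protein-coding genes lay between 6.06 and 45.8 kb from one. A partner was present at chr3:11509977-11510376 in AT3G05945, a long noncoding RNA gene, at an offset of 19 bp. It was also present at chr5:10956910-10957309 in AT5G04925, another long noncoding RNA gene, at 47 bp. The latter gene held a second distal site, chr5:10957528-10957927, whose nearest ampDAP midpoint was 571 bp away.

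The nearest protein-coding genes of the distal sites were 608 different genes, of which 395 were nearest to 1 site and 25 to 5 or more. AT5G29624 was nearest to 11 sites. The other genes named here were taken from the most frequent ones because they have a symbol. YY1, a zinc finger transcription factor gene, was nearest to 9. PRK3, which encodes a pollen receptor-like kinase, and PHL1, a relative of the phosphate starvation regulator PHR1, were each nearest to 6. Being the nearest gene carries no sign that the site acts on it.

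The sites nearest to the limit of 3 kb differed little in distance. The 5 distal sites just beyond it lay 3001 to 3013 bp from AT3G42660, KP1 (a kinesin gene), AT1G66210, PDE337 and AT5G38360. All 5 had an ampDAP partner. The 5 sites just short of the limit, which were not distal, lay 2978 to 2997 bp from TPS21 (a terpene synthase gene), GSTU9 (a glutathione transferase gene), MYB28 (a regulator of glucosinolate synthesis), AT3G33187 and PHT1;1 (a phosphate transporter gene). Of these 5, 1 had a partner. So few sites cannot show a change at the limit. Over all DAP sites the partner share was 28.05% at 3 to 5 kb from genes and 23.85% at 1 to 3 kb.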

How the data were processed

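The authors deposited 1 list of interval positions per sample, with no score. Bowtie2, SAMtools, MACS2 and the TAIR10 build are named in the submitters' processing notes, without versions, settings or any control. All intervals were 400 bp wide, and base 200 was used as the midpoint. Genes came from RefSeq's TAIR10.1 table (27444 protein-coding genes and 37899 genes of any kind), whose nuclear chromosomes are those of TAIR10. As a check of the frame, 76.1% of DAP midpoints lay in genes, and 60.5 to 61.6% did when moved by 5 to 50 kb. Coordinates of sites count from 1. Distal sequence was counted by coordinate, so unassembled or unmappable bases are included.

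Shares were computed in Python 3.11.15 with numpy 2.4.6 and scipy 1.17.1, and figures with matplotlib 3.10.9. Clopper-Pearson, Newcombe and Poisson intervals are at 95%. The counting was tested on simulated data. Samples were assigned to DAP and ampDAP by the molecule type in the labels. Each had 1 library, so nothing was tested, and read depth is unknown.

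The members, lists and bins were chosen with earlier results of these data known. The sites named are the 10 farthest from a gene, the 10 farthest with a partner, 5 on each side of the 3 kb limit, the groups with most sites, noncoding RNA genes (up to 10), pseudogenes with at least 2 sites (summarised, with those of 4 or more named) and the 5 farthest unpartnered ampDAP sites. The nearest genes named were chosen after their counts were seen, as the most frequent one and those with a symbol among the next. Alternatives were other distance limits, all annotated genes, looser pseudogene overlap, partner distances of 50, 100 and 400 bp, isolated sites, another centre, other group gaps and leaving out each chromosome. Genome sequence was not used here, so base composition and motifs were not analysed here.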

Additional observations from a re-analysis of the deposited data

How the results depend on the processing

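Of 94 alternative values, 73 lay inside the 95% interval of the value given above, or within 1.5 times it for the number of sites. The other 21 lay outside. Many of the 94 left out 1 chromosome and kept 773 to 860 of the same 1015 sites, so their staying inside was nearly assured. The pooled count is therefore no measure of stability under other rules. A change of direction was possible only for differences in partner share and for densities in against outside pseudogenes, and 0 of these changed. The alternatives for these differences and densities were chosen after seeing the data. With limits of 2, 5 and 10 kb, density was 66.6, 48.8 and 40.9 per Mb, the median distance from the centre 1.98, 1.18 and 0.894 Mb, and the share in pseudogenes 46.6, 57.6 and 58.7% (39.6, 45.8 and 45.1% of the sequence). The number of sites was 1430, 630 and 356. At 10 kb the partner share in minus outside pseudogenes was -12.2 points and the density ratio 1.73. Taking distance from genes of any kind left 117 sites, with a partner share of 24.8% and a difference from other sites of 4.37 points (-2.59 to 12.9). The share in pseudogenes was 59.2% (50.2% of the sequence) for any shared base and 65.2% (58.2%) within 500 bp. Groups with gaps under 2 and 10 kb held 37.1 and 62.7% of the sites. The cause of these shifts was not tested.

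Leaving out each chromosome in turn gave 773 to 860 sites, a density of 57.55 to 63.4 per Mb (highest without chromosome 1), a median position of 1.503 to 1.64 Mb, a pseudogene share of 51.6 to 54.8%, a partner share of 28.0 to 29.1%, an unpartnered ampDAP share of 23.7 to 27.6%, a partner difference of 7.73 to 9.20 points, an in minus outside difference of -8.74 to -4.26 points and a density ratio of 1.39 to 1.54. Partner distances of 50 to 400 bp gave partner shares of 27.0 to 29.8% and unpartnered shares of 24.8 to 29.5%. No paired analysis was possible because there was only 1 DAP and 1 ampDAP library. The planned sequence measures and their windows of 100 and 400 bp were not run. Without peak heights or depth, a site missing from a list cannot be told apart from one below its threshold.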
